A study of Mus musculus with 2 samples.

Results

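The 40 genes described here encode the enzymes and transporters that build and sulfate glycosaminoglycans, chosen by symbol for their known step in the pathway. All 40 were found among the 32286 features of both count matrices, with Bpnt2 listed under its earlier symbol Impad1. By step, 6 belong to the linker, 6 to the chondroitin polymer, 9 to chondroitin and dermatan sulfation, 4 to the heparan polymer, 9 to heparan modification and 6 to the supply of sulfate and sugar donors. They were measured by droplet single-cell RNA sequencing in 2 libraries of tdTomato-positive knee joint cells from Procr-CreER;tdTomato mice, trace and pulse, 1 library per group. In these mice tamoxifen turns on tdTomato, a red fluorescent protein, where Procr, which encodes the receptor of protein C, is active, so both libraries hold only the cells that the Procr-driven recombinase had marked, with their progeny. Tamoxifen was given at 4 weeks of age in both groups, and cells were taken 4 weeks later for trace and 2 days later for pulse. Trace mice were therefore older than pulse mice when cells were taken. Each library pooled 3 mice, whose cells cannot be told apart. The sort kept DAPI-negative cells without CD45, Ter119 or CD31. The protocol in the labels also mentions periosteum, so cells from beside the cartilage were possible.

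Glycosaminoglycans are long sugar chains hung on core proteins such as aggrecan. Synthesis begins with a short linker on a serine, then either N-acetylgalactosamine is added and chondroitin sulfate follows, or N-acetylglucosamine is added and heparan sulfate follows. Sulfotransferases decorate both chains with sulfate from a common donor, PAPS; in cartilage the charged chondroitin sulfate holds the water that resists compression, and loss of several of these genes causes skeletal dysplasia in humans.

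Cells with 500 or more detected genes and 10% or less of their transcripts from mitochondrial genes were kept, 9247 in trace and 6533 in pulse, with medians of 3645 and 2837 unique molecular identifiers (UMIs). Each kept cell was gated on marker genes, none of them an enzyme of the list, and every class name below means cells with those markers. Surface chondrocytes carried cartilage markers and Prg4, the lubricin gene, and deeper-zone chondrocytes carried cartilage markers and Matn1, Matn3, Col9a1, Epyc or Col11a2 without Prg4. There were 4351 surface cells in trace and 3057 in pulse, against 127 deeper-zone cells in trace and 740 in pulse. Markers that the gate used separated the classes in both libraries, with Prg4 at 28482 and 11589 CPM (UMIs per 1000000 UMIs of the class) in surface cells of trace and pulse and 219 and 88.6 CPM in deeper-zone cells. Col10a1, a hypertrophy gene outside the gate, was at 2153 and 3439 CPM in surface cells of trace and pulse. Although the sort excluded CD31 and CD45, 326 trace and 58 pulse cells carried endothelial markers, and 368 trace and 4 pulse cells carried blood-lineage markers. The libraries also differed in sex-linked genes, with Xist at 365 and 0.205 CPM and Ddx3y at 0.242 and 204 CPM in trace and pulse surface cells. Transcripts associated with ribosomal RNA took 8.80% of trace and 0.904% of pulse UMIs in surface cells. Chase time, age when cells were taken, these sex-linked genes and that share went together. Their parts in any difference between trace and pulse cannot be told apart. Since cells of 1 library are not replicates, no comparison here has a test, and every interval is a 95% interval for counting error only.

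Summed over all 40 genes, surface chondrocytes had 5256 CPM (5224 to 5287) in trace and 7371 CPM (7317 to 7425) in pulse. Deeper-zone chondrocytes had 5349 CPM (5193 to 5508) in trace and 6114 CPM (6049 to 6179) in pulse. The totals were alike in trace, and in pulse that of surface cells was the greater. Xylt1 alone gave 2135 and 3014 CPM of the surface totals of trace and pulse, and 1478 and 1340 CPM of the deeper-zone totals. With Xylt1 left out, the deeper-zone total was the greater in both libraries. Blood-lineage cells of trace had the lowest total of the named classes, 1493 CPM.

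**Figure D1:**
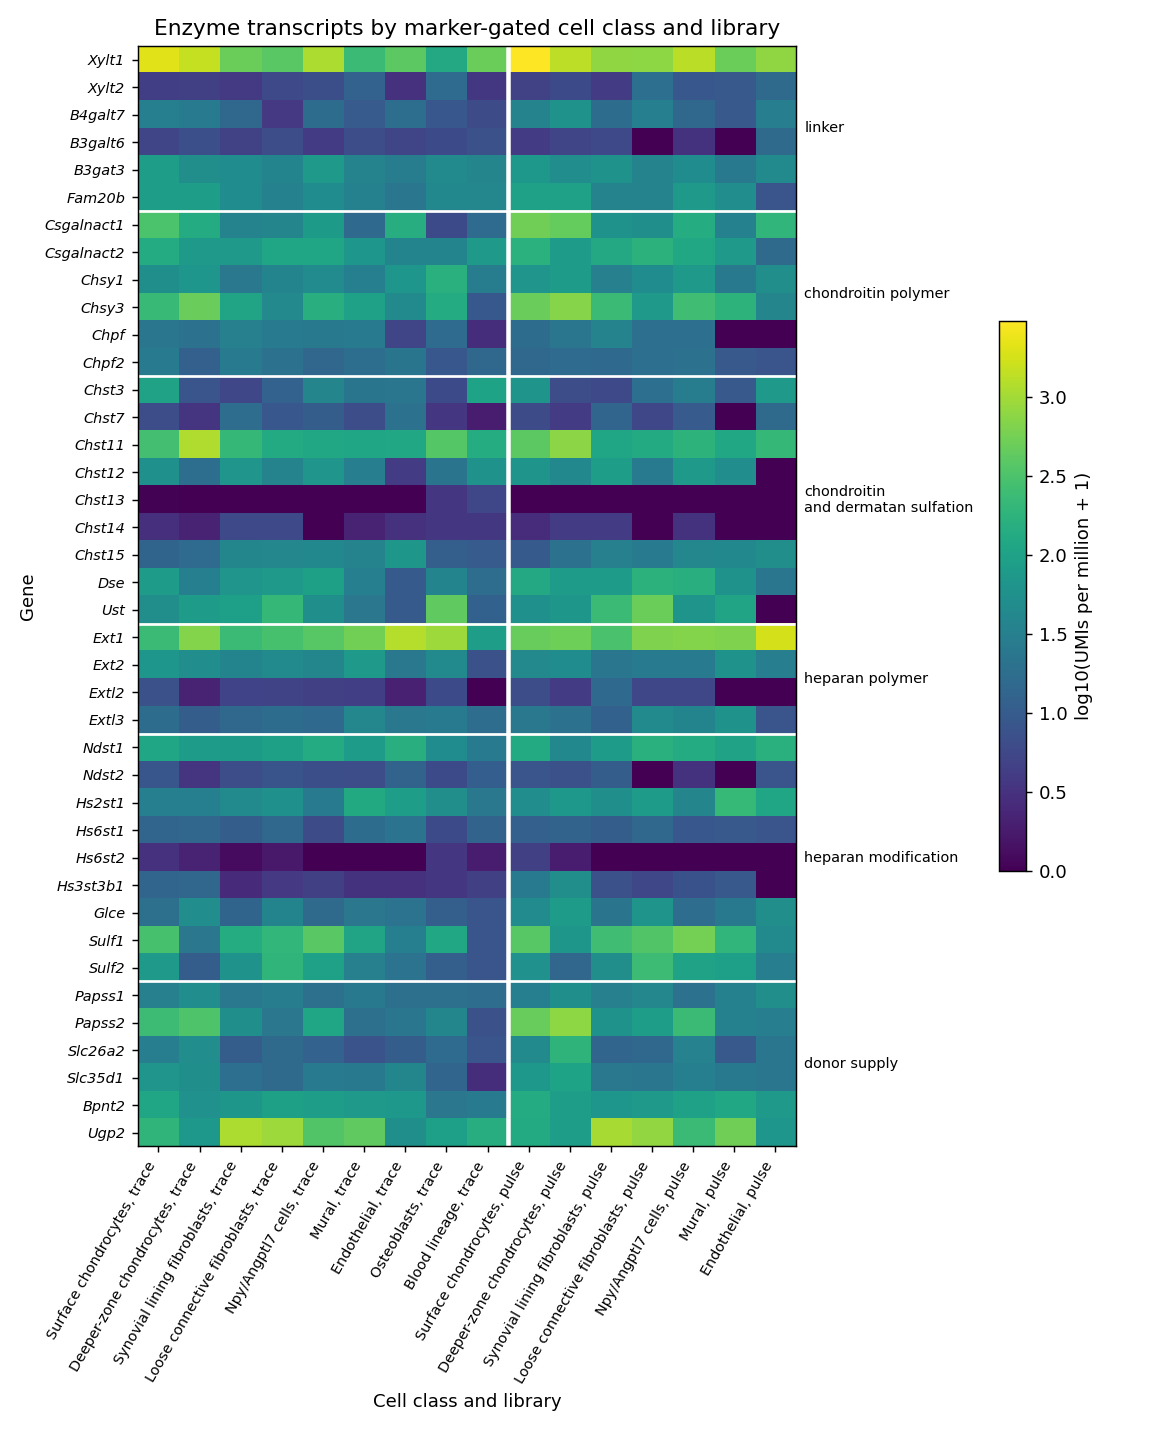
Level of each of the 40 genes (rows, grouped by step) in each marker-gated class with 50 or more cells (columns, trace classes left of pulse classes), as log10 of CPM plus 1. Xylt1 is the brightest row in surface chondrocytes of both libraries. Along its own row, Chst11 is brightest in deeper-zone columns, Ext1 in endothelial columns and Ugp2 in synovial lining and loose connective columns.

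The comparison of surface with deeper-zone chondrocytes was made within each library, so that the differences between the libraries did not enter it. A gene was counted as higher or lower at a 2-fold ratio where it reached 10 CPM in at least 1 of the 2 classes. In trace, 32 of the 40 genes reached that level, and 9 were higher and 4 lower in surface cells, against a background over 8115 genes of 19.0% higher and 11.5% lower. In pulse, 32 genes reached it, and 5 were higher and 2 lower, against 13.7% higher and 19.0% lower of 9256 genes. The median log2 ratio of the genes was 0.25 in trace, where the median of all genes was 0.26, and -0.15 in pulse, where it was -0.05. The medians of the list were thus close to those of all genes in both libraries. Among single genes, 3 (Chst3, Sulf1 and Sulf2) were past 2-fold in the same direction in both libraries, all of them higher in surface cells. These were 9.38% of the 32 genes, close to the 8.83% of all 7847 genes measured in both comparisons that were 2-fold higher in both, and 0 were 2-fold lower in both, against 7.9% of all genes. The sign of the ratio was the same in both libraries for 27 of the 32 genes (84.4%), against 73.1% of all genes. The counting interval lay above 1 in both libraries for 12 genes (37.5%, against 24.3% of all genes), below 1 in both for 8 (25%, against 16.1%) and on opposite sides for 0 (against 4.07%). Such shares depend on how many UMIs the genes had, so nothing particular to the list is read from them. The trace ratios rest on 127 deeper-zone cells, and within each library the zones were alike in ribosomal RNA-associated share, 8.80% and 0.904% in surface cells and 10.9% and 0.979% in deeper-zone cells. Those cells also had more of the bone matrix transcripts Ibsp and Col1a1 than the deeper-zone cells of pulse, 2522 against 107 CPM and 448 against 61.3 CPM, and the part of that in the ratios was not tested.

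**Figure D2:**
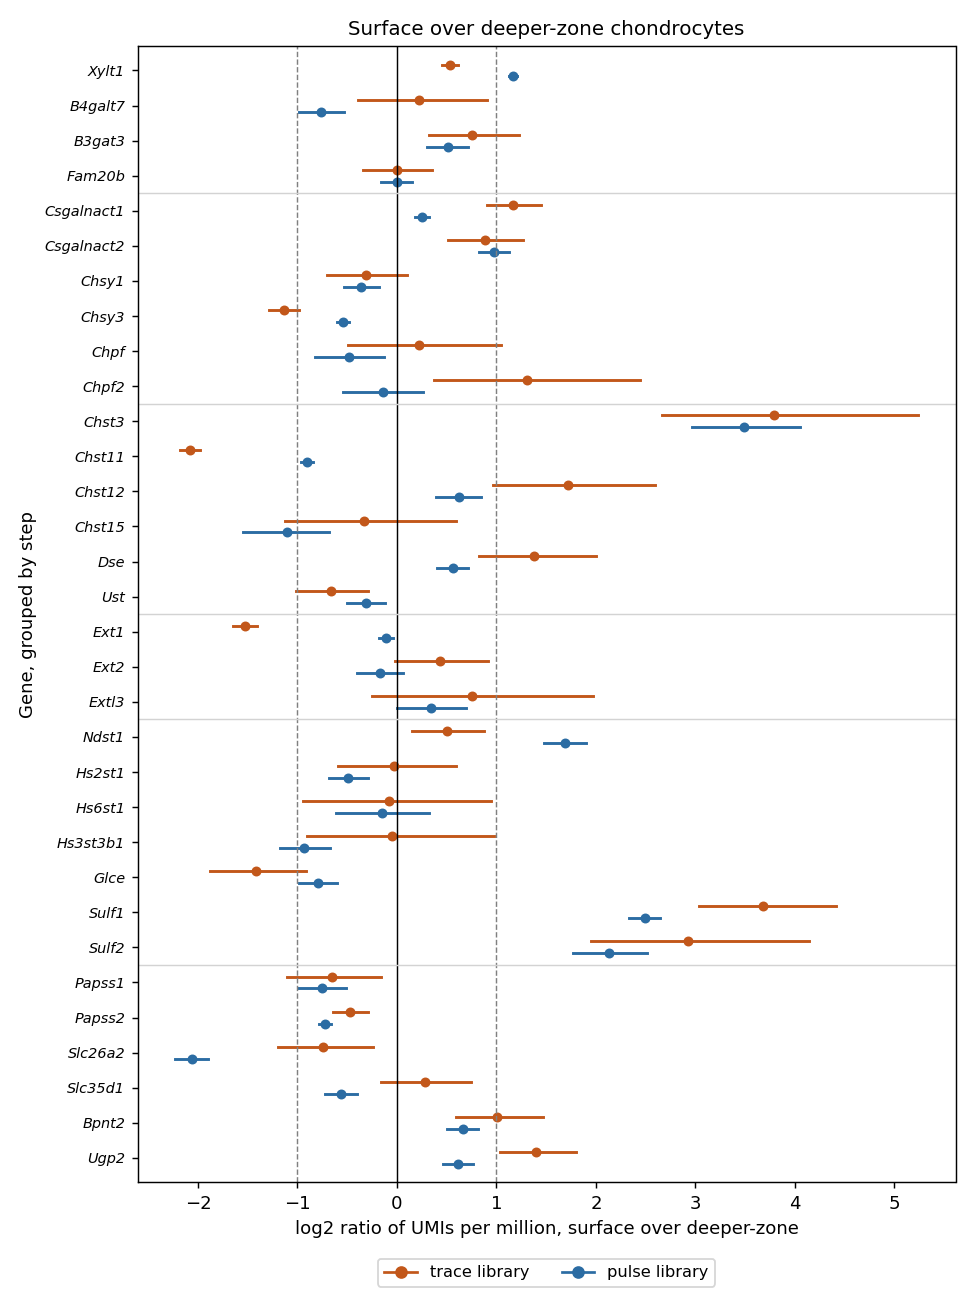
Ratio of surface over deeper-zone chondrocytes on the log2 scale for the 32 genes that reached 10 CPM in either zone, with trace above pulse for each gene, bars giving 95% counting intervals and dashed lines marking 2-fold. Chst3, Sulf1 and Sulf2 lie right of the upper dashed line in both libraries, and Chst11, Glce, Ext1, Chsy3 (trace) and Slc26a2, Chst15 (pulse) reach past the lower one.

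Most UMIs of the linker genes in both zones came from Xylt1, the xylosyltransferase that attaches the first sugar to the core protein. Its gene body is 293 kb, and whether reads in introns added to its count is not known. Xylt1 had 2135 CPM in trace and 3014 CPM in pulse surface cells, against 1478 and 1340 CPM in deeper-zone cells. Surface cells were the higher zone in both libraries, with a ratio of 1.44 (1.37 to 1.53) in trace, inside 2-fold, and 2.25 (2.19 to 2.31) in pulse. Some 96.1% of trace and 97.7% of pulse surface cells had a Xylt1 UMI, as did 97.6% and 94.6% of deeper-zone cells. Blood-lineage cells of trace had one in 54.3%, so presence in a cell was not specific to cartilage. Fam20b, the kinase that phosphorylates the xylose, was level across the zones, at 88.5 and 97.4 CPM in surface cells and 88.6 and 97.5 CPM in deeper-zone cells. Its ratio was 0.998 in both libraries, with intervals of 0.791 to 1.28 in trace and 0.897 to 1.11 in pulse. B3gat3, which adds the glucuronic acid that completes the linker, had 86.8 and 70.7 CPM in surface cells against 51.5 and 49.7 CPM in deeper-zone cells. B4galt7, the first galactosyltransferase, had 30.7 and 34.5 CPM against 26.3 and 58.2 CPM. Its ratio was 1.16 (0.762 to 1.87) in trace, where the order of the zones was not determined at this depth, and 0.592 (0.506 to 0.692) in pulse. Xylt2 and B3galt6 stayed under 10 CPM in both zones of both libraries.

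The 6 chondroitin polymer genes did not share a direction, with 2 higher and 1 lower in surface cells at 2-fold in trace and 0 in either direction in pulse. Csgalnact1, which adds the first N-acetylgalactosamine and so commits the chain to chondroitin, had 309 and 537 CPM in trace and pulse surface cells, against 138 and 452 CPM in deeper-zone cells. Its ratio was 2.25 (1.87 to 2.73) in trace and 1.19 (1.13 to 1.25) in pulse, higher in surface cells at 2-fold in trace only. That call ended with classes taken from Leiden clusters, groups of cells with alike expression, in place of the gate (log2 ratio 0.94), with the median of all genes set to 0 (0.90) and with per-cell means (0.80). Csgalnact2, its paralogue, came to 136 and 164 CPM against 74.3 and 83.2 CPM, just inside 2-fold at 1.83 and 1.97. Chsy3, a chondroitin synthase that extends the chain, went the other way, with 221 and 488 CPM in surface cells against 486 and 711 CPM in deeper-zone cells. The Chsy3 ratio was 0.455 (0.411 to 0.504) in trace, lower in surface cells at 2-fold though not with marker thresholds doubled (log2 ratio -0.83), and 0.686 (0.658 to 0.716) in pulse. Chsy1, the other synthase, had ratios of 0.804 (0.615 to 1.07) and 0.781 (0.691 to 0.884). Chpf and Chpf2, partners of the synthases, were scarcer, and neither had intervals clear of 1 in both libraries. Chpf had ratios of 1.17 (0.712 to 2.06) in trace, on 16 deeper-zone UMIs, and 0.717 (0.563 to 0.916) in pulse. Chpf2 had 26.6 and 14.0 CPM in surface cells against 10.8 and 15.5 CPM in deeper-zone cells, a ratio of 2.47 (1.29 to 5.44) in trace that rests on 9 deeper-zone UMIs and was inside 2-fold with Leiden clusters (log2 ratio 0.91), and 0.906 (0.686 to 1.20) in pulse. The whole step summed to 770 and 1283 CPM in surface cells and 795 and 1366 CPM in deeper-zone cells, so the total hardly differed by zone.

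Chst3 and Chst11, sulfotransferases that act on the same sugar of chondroitin, had zone ratios on opposite sides of 1. Chst3 places sulfate on the 6 position of N-acetylgalactosamine and Chst11 on the 4 position. Chst3 had 2056 and 618 UMIs in surface cells of trace and pulse, against 6 and 31 UMIs in deeper-zone cells. Scaled to the class totals these were 99.4 and 63.2 CPM in surface cells, against 7.19 and 5.64 CPM in deeper-zone cells. The surface over deeper-zone ratio of Chst3 was therefore 13.8 (6.35 to 37.8) in trace and 11.2 (7.81 to 16.6) in pulse, the highest of the 32 genes in both. Chst11 was the reverse in direction, with 276 and 405 CPM in surface cells against 1164 and 757 CPM in deeper-zone cells. Its ratio was 0.237 (0.221 to 0.254) in trace, the lowest of the list there, and 0.534 (0.511 to 0.558) in pulse, short of 2-fold. Of the UMIs of both genes together, Chst3 gave 26.5% (25.5% to 27.5%) in trace and 13.5% (12.5% to 14.5%) in pulse surface cells. In deeper-zone cells it gave 0.613% (0.225% to 1.33%) and 0.739% (0.503% to 1.05%). These shares are shares of UMIs, not of enzyme activity or of sulfated disaccharides.

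Chst3 lies at chr10:60181532-60219260 on the minus strand and Chst11 at chr10:82985498-83195900 on the plus strand, on the same chromosome of GRCm38. Because these neighbours in function had opposite zone ratios, the 250 bases before the start of each are shown, taken from RefSeq on GRCm38.p6 and written along the gene's own strand. They come from chr10:60219261-60219510 for Chst3 and chr10:82985247-82985496 for Chst11. Capitals mark the GC box, GGGCGG on either strand, the motif bound by Sp1 family factors.
Chst3 promoter: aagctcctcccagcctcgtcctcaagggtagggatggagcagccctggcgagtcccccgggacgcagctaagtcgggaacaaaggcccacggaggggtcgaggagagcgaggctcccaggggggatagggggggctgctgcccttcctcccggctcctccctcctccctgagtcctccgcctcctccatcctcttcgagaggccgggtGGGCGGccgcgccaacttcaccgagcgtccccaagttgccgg
Chst11 promoter: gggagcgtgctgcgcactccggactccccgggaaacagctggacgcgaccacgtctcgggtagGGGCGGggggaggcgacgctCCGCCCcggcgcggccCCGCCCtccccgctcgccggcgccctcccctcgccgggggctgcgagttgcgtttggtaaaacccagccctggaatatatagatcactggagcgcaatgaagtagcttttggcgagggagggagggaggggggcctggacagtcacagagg
The stretches were alike in base composition, at 69.6% GC for Chst3 and 70.0% for Chst11, where the median over all promoters in the table was 52.4%. The GC box occurred once in the Chst3 stretch and 3 times in that of Chst11. A SOX core (AACAAT), a short cyclic AMP response element (TGACG), an AP-1 site (TGANTCA) and a TEAD core (GGAATG) had 0 matches in either, on both strands. Over the 31 genes of the list with a promoter in the table, the GC box was found in 25 (80.6%), against 35.4% of 27025 genes. The SOX core was found in 2 (6.45%, against 10.9%), the cyclic AMP response element in 11 (35.5%, against 19.8%), the AP-1 site in 1 (3.23%, against 7.82%) and the TEAD core in 6 (19.4%, against 14.4%). A match is a description of letters in these windows and says nothing about which factor was bound.

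The other chondroitin and dermatan sulfation genes had ratios on both sides of 1. Chst12, a further 4-sulfotransferase, had 55.2 and 62.5 CPM in surface cells against 16.8 and 40.8 CPM in deeper-zone cells. Unlike that of Chst11, its surface over deeper-zone ratio was above 1 in both libraries. It was 3.29 (1.95 to 6.04) in trace, on 14 deeper-zone UMIs, and 1.53 (1.31 to 1.79) in pulse. Dse, the epimerase that turns glucuronic into iduronic acid and makes dermatan sulfate, had 80.9 and 123 CPM against 31.1 and 83.7 CPM. Its ratios of 2.60 (1.77 to 3.99) and 1.47 (1.32 to 1.64) were past 2-fold in trace only, and with Leiden clusters the trace log2 ratio was 0.78, inside 2-fold. Chst15, which adds a second sulfate to an already 4-sulfated sugar, was scarce, at 12.4 and 8.59 CPM against 15.6 and 18.6 CPM. Its ratio was 0.795 (0.457 to 1.51) in trace and 0.463 (0.343 to 0.624), past 2-fold, in pulse. That call ended with marker thresholds doubled (log2 ratio -0.93), with per-cell means (-0.97) and with the Prg4 threshold dropped from the surface gate (-0.79), an alternative chosen after seeing the data. The gene overlaps Fgfr2 on the same strand, so its count is uncertain. Ust, which sulfates the uronic acid, had ratios of 0.632 (0.495 to 0.818) and 0.805 (0.704 to 0.921). Chst7, Chst13 and Chst14 did not reach 10 CPM in either zone. Chst13 had 1 UMI in trace surface cells and 0 in the other chondrocyte classes compared, where 0 allows up to 0.307 CPM in pulse surface cells.

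The heparan polymer is made by the Ext1 and Ext2 proteins working together. Ext1 had 237 and 471 CPM in trace and pulse surface cells, against 685 and 509 CPM in deeper-zone cells. Deeper-zone cells were well above surface cells in trace, with a ratio of 0.346 (0.318 to 0.378), and barely so in pulse, with 0.925 (0.883 to 0.970). Ext2 had 66.0 and 42.8 CPM against 49.1 and 48.2 CPM. Its ratio parted from that of Ext1 in trace, at 1.34 (0.985 to 1.88), and was close to it in pulse, at 0.887 (0.758 to 1.04). Extl3, which adds the first N-acetylglucosamine, had 16.1 and 24.0 CPM against 9.58 and 18.9 CPM. Its ratio was 1.68 (0.843 to 3.93) in trace, on 8 deeper-zone UMIs, so a difference was not detectable at that depth. Extl2 stayed under 10 CPM in both zones.

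Among heparan modification genes, the extracellular sulfatases stood out. Sulf1 and Sulf2 remove 6-O-sulfates from heparan sulfate after it reaches the cell surface, and so alter how it binds growth factors. Sulf1 had 292 and 380 CPM in trace and pulse surface cells, against 22.8 and 67.7 CPM in deeper-zone cells. Its ratio was 12.8 (8.21 to 21.3) in trace and 5.61 (5.04 to 6.26) in pulse. Sulf2 had 73.0 and 56.6 CPM against 9.58 and 12.9 CPM, with ratios of 7.62 (3.86 to 17.7) and 4.38 (3.41 to 5.69). Both sulfatases were thus higher in surface cells in both libraries. The trace values rest on 19 deeper-zone UMIs of Sulf1 and 8 of Sulf2. The genes lie on different chromosomes, Sulf1 at chr1:12692277-12861192 and Sulf2 at chr2:166073089-166155663 of GRCm38, and Sulf2 overlaps Ncoa3 on the opposite strand.

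Counted by cell, the Sulf1 difference was also visible. A Sulf1 UMI was found in 52.6% of trace and 47.1% of pulse surface cells, against 7.09% and 23.0% of deeper-zone cells, although deeper-zone cells were deeper, with medians of 6201 and 6972 UMIs against 4254 and 2899. After every cell was thinned to 2000 UMIs the shares were 36.0% (34.4% to 37.5%) and 39.3% (37.3% to 41.3%) in surface cells. They were 2.68% (0.556% to 7.63%) and 11.1% (8.83% to 13.7%) in deeper-zone cells, of which 112 and 666 were deep enough to thin. Blood-lineage cells of trace, at a median of 2113 UMIs, had Sulf1 in 1.90% of cells, 1.04% (0.126% to 3.71%) after thinning. The thinned deeper-zone share of trace therefore could not be told from that background. Chst11 had the opposite order, in 35.3% (33.8% to 36.9%) and 46.7% (44.7% to 48.8%) of thinned surface cells, against 76.8% (67.9% to 84.2%) and 63.4% (59.6% to 67.0%) of thinned deeper-zone cells. Unthinned, Chst11 was found in 55.4% and 56.4% of surface cells, in 91.3% and 87.4% of deeper-zone cells and in 25% of blood-lineage cells.

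The intracellular heparan enzymes varied less with zone. Ndst1, which swaps N-acetyl groups for sulfate and so opens the chain to further modification, had 112 and 131 CPM in surface cells against 79.0 and 40.6 CPM in deeper-zone cells. It was higher in surface cells at 2-fold in pulse, with 3.22 (2.79 to 3.73), and not in trace, with 1.42 (1.11 to 1.84). Ndst1 overlaps the ribosomal protein gene Rps14 on the opposite strand, and how strand was used in counting is not given in the sources used here. Glce, the heparan epimerase, had 18.4 and 46.2 CPM against 49.1 and 80.1 CPM. Its ratios of 0.374 (0.271 to 0.530), past 2-fold, and 0.577 (0.505 to 0.660) place it with the deeper zone in both libraries. Hs3st3b1, a 3-O-sulfotransferase, reached 12.8 and 26.8 CPM against 13.2 and 51.0 CPM, with ratios of 0.969 (0.533 to 1.97) and 0.526 (0.443 to 0.625). The 2-O-sulfotransferase Hs2st1 had 30.5 and 49.7 CPM against 31.1 and 69.9 CPM, and the 6-O-sulfotransferase Hs6st1 had 12.5 and 10.6 CPM against 13.2 and 11.8 CPM. Both were close to level between the zones in trace, where the intervals of their ratios were 0.661 to 1.51 and 0.521 to 1.92. Ndst2 and Hs6st2 stayed under 10 CPM.

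Of the 6 genes for sulfate and sugar donors, 2 were higher and 0 lower in surface cells in trace, and 0 higher and 1 lower in pulse. Slc26a2, the sulfate transporter whose loss causes diastrophic dysplasia in humans, had 29.5 and 44.2 CPM in trace and pulse surface cells, against 49.1 and 185 CPM in deeper-zone cells. The ratio was 0.600 (0.437 to 0.844) in trace and 0.239 (0.213 to 0.268) in pulse, where it was lower in surface cells at 2-fold and the lowest of the list. Papss2, which makes PAPS in cartilage, had 241 and 470 CPM against 333 and 777 CPM, with ratios of 0.724 (0.642 to 0.820) and 0.605 (0.580 to 0.631). Papss1, its paralogue, had 32.0 and 31.1 CPM against 50.3 and 52.4 CPM, with ratios of 0.637 (0.466 to 0.892) and 0.593 (0.503 to 0.700). Papss2 gave nearly the same share of the UMIs of both synthases in each zone, 88.3% and 93.8% in surface cells and 86.9% and 93.7% in deeper-zone cells. All these ratios had intervals below 1, and of them that of Slc26a2 in pulse was past 2-fold.

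The remaining 3 donor supply genes differed among themselves. Ugp2, which makes UDP-glucose, had 187 and 133 CPM in surface cells against 70.7 and 87.0 CPM in deeper-zone cells, with ratios of 2.65 (2.05 to 3.48), past 2-fold, and 1.53 (1.38 to 1.70). Bpnt2, the Golgi phosphatase that breaks down the by-product of sulfation, had 114 and 138 CPM against 56.3 and 87.0 CPM. Its ratios were 2.02 (1.51 to 2.76), just past 2-fold, and 1.58 (1.42 to 1.76). In trace 4 alternatives put Bpnt2 inside 2-fold, at log2 ratios of 0.75 to 0.98. Slc35d1, which carries nucleotide sugars into the endoplasmic reticulum, had 63.8 and 70.4 CPM against 52.7 and 104 CPM, with ratios of 1.21 (0.897 to 1.67) in trace, where the interval spans 1, and 0.676 (0.604 to 0.757) in pulse, on the deeper-zone side.

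The comparison of trace with pulse was made within each zone. It sets cells taken 4 weeks after labelling beside cells taken 2 days after it from younger mice. In surface chondrocytes 32 genes reached 10 CPM, and 0 were higher and 3 lower in trace, against a background over 8219 genes of 2.15% higher and 10.8% lower. The median log2 ratio was -0.24, equal to that of all genes. Glce had 18.4 CPM in trace and 46.2 CPM in pulse, a ratio of 0.397 (0.346 to 0.457). Hs3st3b1 had 12.8 CPM in trace and 26.8 CPM in pulse, a ratio of 0.476 (0.400 to 0.567), and Chsy3 221 and 488 CPM, a ratio of 0.453 (0.435 to 0.472). With the median of all genes set to 0, Hs3st3b1 at -0.83 and Chsy3 at -0.91 in log2 were inside 2-fold. Ext1 at 0.504 (0.484 to 0.525) and Papss2 at 0.513 (0.493 to 0.534) lay just short of 2-fold lower. The highest ratio was that of Chpf2, 1.90 (1.57 to 2.31), with 26.6 CPM in trace and 14.0 CPM in pulse, and Chst3 followed Chpf2 at 1.57 (1.44 to 1.72).

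Deeper-zone chondrocytes of trace had more genes past 2-fold lower, as they did over the whole transcriptome. Of 31 genes that reached 10 CPM, 0 were higher and 9 lower in trace, against 3.51% higher and 26.7% lower of 8772 genes. The median log2 ratio was -0.43 for the list and -0.50 for all genes, so these counts describe a shift that most genes shared. Slc26a2 had 49.1 CPM in trace and 185 CPM in pulse, a ratio of 0.266 (0.190 to 0.363), and Hs3st3b1 had 13.2 and 51.0 CPM, a ratio of 0.259 (0.128 to 0.470). Csgalnact1 had 138 CPM in trace and 452 CPM in pulse, a ratio of 0.305 (0.250 to 0.367). Papss2 had 333 CPM in trace and 777 CPM in pulse, a ratio of 0.429 (0.378 to 0.484), while that of its paralogue Papss1 was 0.960 (0.677 to 1.33). The others lower at 2-fold were Sulf1 at 0.336, Dse at 0.372, Chst12 at 0.411, Hs2st1 at 0.446 and B4galt7 at 0.452, on 14 to 26 trace UMIs each. Sulf1 was inside 2-fold with the Prg4 threshold dropped, at -0.85 in log2. With the median of all genes set to 0, Dse (-0.93), Chst12 (-0.78), Papss2 (-0.72), Hs2st1 (-0.67) and B4galt7 (-0.65) were inside 2-fold. Chst11 and Ext1 went against this, with 1164 and 685 CPM in trace and 757 and 509 CPM in pulse. Set side by side, the trace over pulse ratio of Chst11 was 0.682 (0.655 to 0.710) in surface cells and 1.54 (1.43 to 1.65) in deeper-zone cells, and that of Ext1 was 0.504 and 1.35 (1.23 to 1.47). Ndst1 was at 0.857 (0.800 to 0.918) in surface cells and 1.95 (1.46 to 2.57) in deeper-zone cells, the highest of the deeper-zone ratios, and Xylt1 was at 0.708 (0.698 to 0.719) and 1.10 (1.04 to 1.17). These differences between the zones were not tested.

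**Figure D3:**
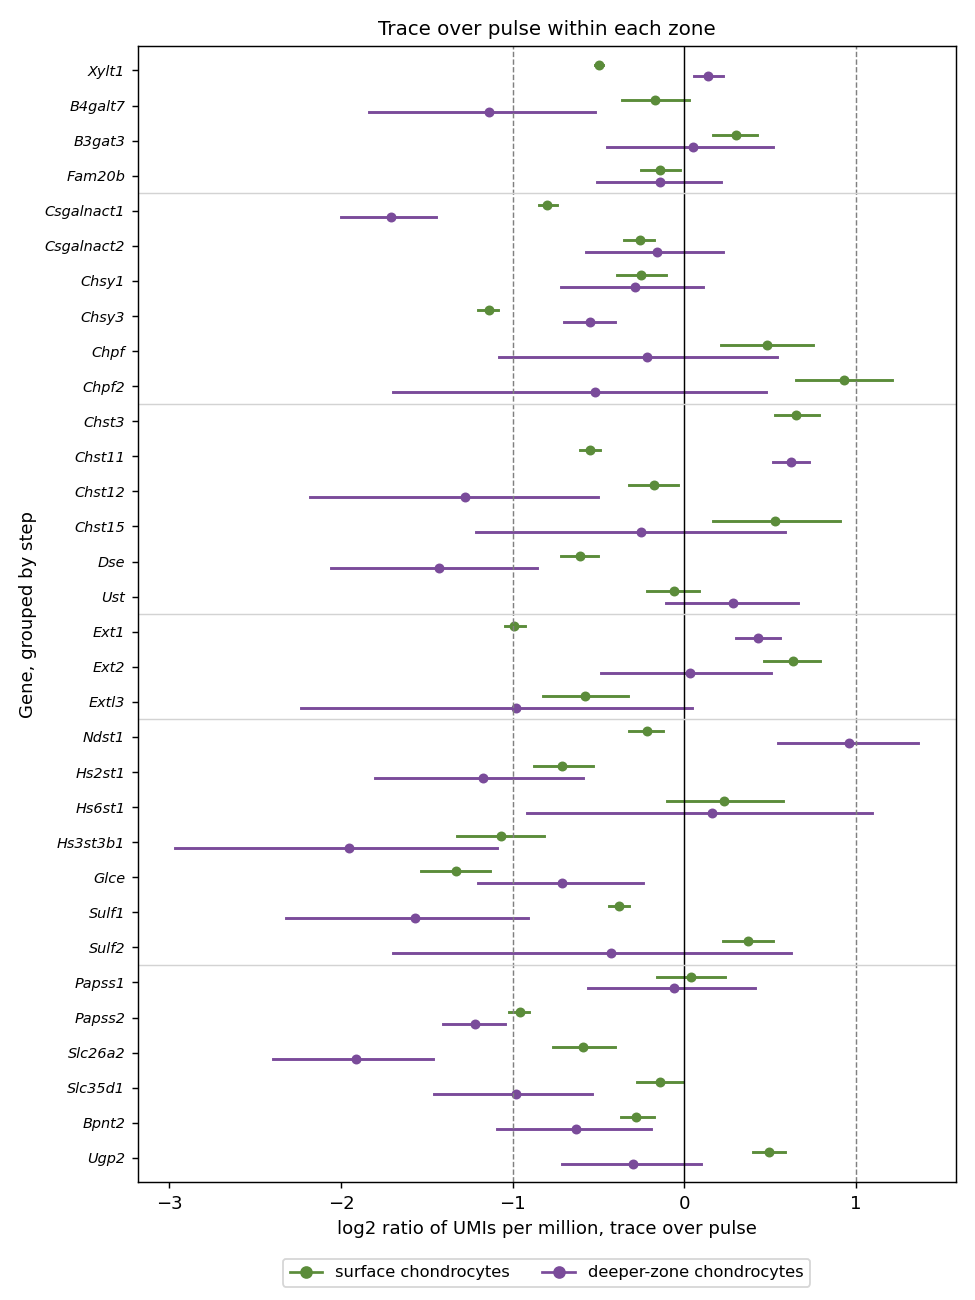
Ratio of trace over pulse on the log2 scale for genes that reached 10 CPM, in surface chondrocytes (upper point of each gene) and deeper-zone chondrocytes (lower point), with 95% counting intervals and dashed lines at 2-fold. Most points lie left of 0 in both zones, none lies right of the upper dashed line, and Xylt1, Chst11, Ext1 and Ndst1 lie on opposite sides of 0 in the 2 zones with intervals clear of it.

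Gene length moved with the trace over pulse ratio of surface cells. Across 8217 genes, which are not independent replicates, Spearman's rho between gene body length and the ratio was -0.31, and the median log2 ratio was 0.09 in the shortest of 4 equal groups and -0.43 in the longest. The 13 listed genes among the longest, which include Xylt1, Csgalnact1, Chsy3, Chst11, Ust and Ext1, had a median of -0.50, against -0.18 for the other 19. In deeper-zone cells rho was 0.00. For surface over deeper-zone, rho was 0.09 in trace and 0.23 in pulse. The part of length in these ratios was not tested.

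Levels were also compared across the 7 cell classes with 50 or more cells in each library. Of 34 genes at 10 CPM, 25 (73.5%) had their highest level in the same class of both libraries, against 50.5% of 10043 genes. This share too depends on how many UMIs the genes had, so nothing particular to the list is read from it. Ugp2 was highest in synovial lining fibroblasts, at 1110 CPM in trace and 1065 CPM in pulse, with loose connective tissue fibroblasts next at 919 and 826 CPM, in the same order in both libraries. Ext1 was highest in endothelial cells, at 1245 and 1810 CPM. Sulf2 was highest in loose connective tissue fibroblasts, at 189 and 244 CPM. Sulf1 was highest in the class marked by Npy and Angptl7, at 391 CPM in trace and 560 CPM in pulse. Surface chondrocytes had 292 and 380 CPM. The gate took Npy and Angptl7 cells with or without cartilage markers, and the class had Acan at 1610 and 2073 CPM and Col2a1 at 280 and 2216 CPM. Hs2st1 was highest in mural cells, at 129 and 216 CPM, though in pulse its interval over the next class, endothelial cells, reached below 1. Chst15 was at 67.5 CPM in trace endothelial cells, above the next class beyond counting error, and at 51.7 CPM in those of pulse on 7 UMIs, where its ratio over mural cells was 1.24 with a lower limit of 0.34.

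Chst3 was not limited to surface chondrocytes or to cartilage. Chondrocytes with the markers of neither zone, left out of the zone comparisons, had 65.0 CPM of Chst3 in trace and 77.3 CPM in pulse. Those cells had Sulf1 at 155 and 391 CPM and Sulf2 at 48.5 and 48.9 CPM. The Chst3 level in blood-lineage cells of trace, 104 CPM, did not differ beyond counting error from that in surface chondrocytes. The ratio was 1.05, with a lower limit of 0.862. In pulse the 73.9 CPM (35.4 to 136) of endothelial cells, on 10 UMIs, overlapped the 63.2 CPM of surface chondrocytes. Endothelial cells of trace were below surface chondrocytes, at 22.5 CPM (13.9 to 34.4) against 99.4 CPM (95.2 to 104). Synovial lining fibroblasts, which share Prg4 with surface chondrocytes at 37851 CPM in trace and 36511 CPM in pulse, had only 4.56 and 4.80 CPM of Chst3. Chst11, Chsy3, Papss2 and Slc26a2 were highest in deeper-zone chondrocytes of both libraries, each above the next class beyond counting error. Osteoblasts of trace had the highest Ust, 421 CPM, and the highest Chsy1, 159 CPM. The osteoblasts of pulse numbered 23 and were given no level. Papss2 at 6.35 CPM and Sulf1 at 7.25 CPM in blood-lineage cells of trace were the lowest levels of these genes among the classes of that library. Prg4, a gene of surface and synovial lining cells, was at 340 CPM in trace and 96.1 CPM in pulse endothelial cells. It was higher in mural cells, at 1476 and 3848 CPM, and in loose connective tissue fibroblasts, at 1716 and 1861 CPM. Osteoblasts and blood-lineage cells of trace had 1751 and 394 CPM.

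**Figure D4:**
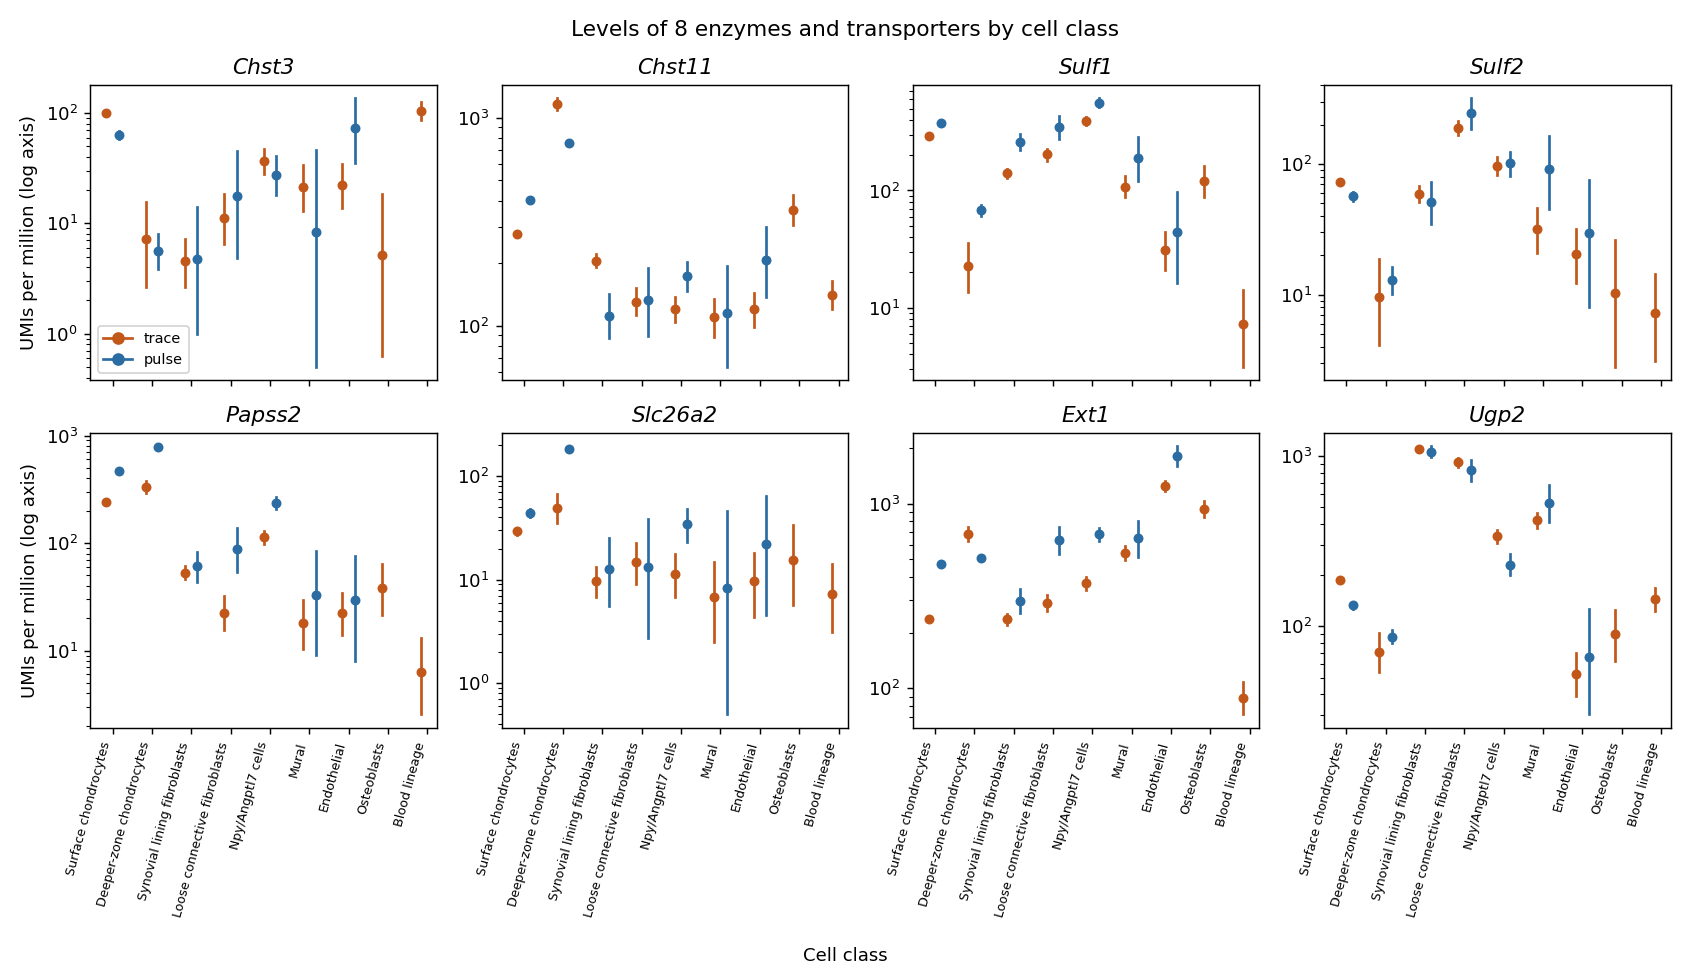
Level of 8 genes in CPM (log axes) by cell class, with trace left of pulse and bars giving exact 95% counting intervals; osteoblasts and blood-lineage cells are shown for trace only. Chst3 is low and Chst11 high in deeper-zone chondrocytes. Sulf1 peaks in Npy and Angptl7 cells and Sulf2 in loose connective tissue fibroblasts. Papss2 and Slc26a2 peak in deeper-zone chondrocytes, Ext1 in endothelial cells and Ugp2 in synovial lining fibroblasts.

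Other genes of the pathway give the setting, again without a test. Over all genes, 19.0% were higher and 11.5% lower in surface cells in trace, and 13.7% higher and 19.0% lower in pulse. Of 12 lysosomal degradation genes, 7 reached 10 CPM in each zone comparison, with 2 higher (Arsb and Glb1) and 1 lower (Galns) in surface cells in trace and 1 higher and 0 lower in pulse. Ids, which removes sulfate from iduronic acid, had 78.3 CPM in pulse surface cells against 30.8 CPM in deeper-zone cells, a ratio of 2.54 (2.15 to 3.02). Of 19 further transferases, 7 were measured in trace, with 2 higher (Hs3st1 and Chst5) and 2 lower (Hs6st3 and Extl1), and 5 in pulse, with 0 higher and 1 lower. Hs6st3, a 6-O-sulfotransferase, was lower in surface cells in both, at 0.677 and 1.23 CPM against 18.0 and 10.9 CPM. Its ratios were 0.0377 (0.0169 to 0.0838) and 0.112 (0.0550 to 0.211). Of 10 genes for sugar and PAPS supply, 9 were measured in trace, with 0 higher and 0 lower, and 10 in pulse, with 0 higher and 2 lower. Among these, Slc35b2, a Golgi transporter of PAPS, had 20.6 CPM in pulse surface cells against 49.3 CPM in deeper-zone cells, a ratio of 0.417 (0.346 to 0.502), beside the Slc26a2 and Papss2 values above.

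Core proteins that carry the chains were counted in the same way. Of 9 chondroitin sulfate core proteins, 7 were measured, with 2 higher and 2 lower in surface cells in each library. Acan and Epyc belong to the markers of the gate, so their values are not a result. Epyc was among the lower genes in each library, so that count was partly fixed by the gate. Dcn, decorin, had 9734 and 5617 CPM in surface cells against 784 and 249 CPM in deeper-zone cells, and Vcan, versican, 113 and 95.5 CPM against 2.40 and 7.46 CPM. Bgn, biglycan, was lower in surface cells, at 456 and 720 CPM against 1216 and 1773 CPM. Of 13 heparan sulfate core proteins, 8 were measured, with 0 higher and 2 lower in trace and 2 higher and 3 lower in pulse. Gpc1, glypican 1, had 6.24 and 8.29 CPM in surface cells against 92.2 and 189 CPM in deeper-zone cells, ratios of 0.0677 (0.0506 to 0.0909) and 0.0438 (0.0345 to 0.0550). Sdc3, syndecan 3, had ratios of 0.264 (0.235 to 0.299) and 0.275 (0.248 to 0.306). Between trace and pulse, 2.15% of all genes were 2-fold higher and 10.8% lower in surface cells, and 3.51% and 26.7% in deeper-zone cells. In surface cells 0 of 6 degradation genes, 0 of 9 supply genes and 0 of 7 heparan sulfate core proteins were past 2-fold. There 1 of 6 further transferases was higher (Hs3st1, at 2.04) and 1 of 6 chondroitin sulfate core proteins lower (Cspg4, at 0.408). In deeper-zone cells 1 of 7 degradation genes was higher (Galns, at 7.40) and 2 were lower (Gusb, at 0.0756 on 1 trace UMI, and Glb1, at 0.463). Of 5 further transferases 1 was lower (B4galt1, at 0.483), and of 10 supply genes 1 was lower (Gmppa, at 0.280). Of 6 chondroitin sulfate core proteins 1 was higher (Dcn, at 3.16), and of 8 heparan sulfate core proteins 1 was lower (Gpc1, at 0.488).

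For 8 genes no comparison could be made at 10 CPM: Xylt2, B3galt6, Chst7, Chst13, Chst14, Extl2, Ndst2 and Hs6st2. Each stayed at or under 7.54 CPM in every chondrocyte class compared. Outside cartilage some passed 10 CPM on few UMIs. Chst7 reached 19.3 CPM in trace and 14.8 CPM, on 2 UMIs, in pulse endothelial cells, and 16.6 and 12.8 CPM in synovial lining fibroblasts. Xylt2 reached 15.4 CPM in trace osteoblasts on 6 UMIs and 17.8 CPM in pulse loose connective tissue fibroblasts on 4. Extl2 reached 14.4 CPM in pulse synovial lining fibroblasts on 9 UMIs. In endothelial cells Ndst2 reached 11.8 CPM in trace on 11 UMIs and B3galt6 14.8 CPM in pulse on 2. Chst3 was measured in 3 comparisons and not between the deeper-zone cells of trace and pulse, where both levels were under 10 CPM.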

How the data were processed

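The deposited matrices hold raw UMI counts per gene and barcode, whole numbers that the authors did not normalize, for called barcodes only. They held 10423 trace and 6863 pulse barcodes with 40284041 and 23306063 UMIs, of which 1176 and 330 barcodes failed the cell filter. Cell Ranger 7.1.0 made them per the file headers. The submitters' processing notes give version 3.0.1 and the build mm10 instead, and list Seurat, STAR, HTSeq and DESeq2 with no role. Intron counting, like the annotation release, is not given in the sources used here. By ID, 32235 features (99.8%) matched GENCODE M21, which gave gene positions. The libraries shared 16 barcodes.

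The listed genes, the other pathway lists and the markers were chosen with earlier results of these data known. Gate thresholds, per 10000 UMIs with at least 2 marker UMIs, were set on marker sums: 20 for cartilage markers (Acan, Sox9, Col2a1, Cnmd, Hapln1, Comp) and Prg4, 25 for deeper-zone markers, 20 for blood-lineage markers and 10 for all others. Chondrocytes with both zones' markers (7 trace, 59 pulse) or with neither (601 trace, 1390 pulse), and 1445 trace and 475 pulse cells that no class took, stayed out of the comparisons. Scrublet marked 0 cells at its own threshold, so doublets were kept, and the top-scoring 5% were left out as an alternative. UMIs were summed per class and library and scaled to CPM. Sums carry exact Poisson intervals, ratios exact conditional Poisson intervals and shares Clopper-Pearson intervals, all at 95%. A 0 was read as up to 3 UMIs. No scaling for gene length was used, and whether reads in introns added to the counts of long genes is not known. Named were the 2 highest genes of each step, all genes past 2-fold and the extremes of each step, with up to 3 genes per other list. Some genes of the other lists are not reported here and stayed out of their counts. The steps were tested on simulated counts. Analyses used Python 3.11.15, scipy 1.17.1 and scanpy 1.11.5.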

Additional observations from a re-analysis of the deposited data

How the results depend on the processing

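No paired analysis was possible because each group had 1 library. Single genes past 2-fold were recomputed under 11 alternatives, giving 352 values, of which 311 stayed within the counting interval of the value given above, 41 moved outside it and 0 changed direction. Chst3 in surface over deeper-zone cells ranged from 3.01 to 5.40 in log2 in trace and from 3.12 to 3.84 in pulse, Sulf1 from 2.74 to 4.39 and from 2.29 to 2.56, Sulf2 from 2.39 to 2.94 and from 1.97 to 2.26, and Chst11 in trace from -2.40 to -1.97. Ratios that moved by over 1.5 times all involved the 127 deeper-zone cells of trace. With marker thresholds doubled, which left 64 of those cells, log2 ratios of surface over deeper-zone in trace were 5.40 for Chst3, 4.39 for Sulf1, 2.10 for Dse and 1.91 for Chpf2, and those of trace over pulse in deeper-zone cells were -2.26 for B4galt7, -2.11 for Dse and -2.29 for Sulf1. Leiden clusters gave 3.01 for Chst3 and 0.78, inside 2-fold, for Dse. Dropping the Prg4 threshold, which put cells with both zones' markers in the deeper class, gave 2.74 and -0.85 for Sulf1, and per-cell means gave -1.90 for Chst12 in trace over pulse. Setting the median of all genes to 0 gave a list median of -0.01 for the trace zone comparison and 0.07 for trace over pulse in deeper-zone cells.

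The counts of genes past 2-fold moved more. Surface over deeper-zone in trace (9 higher, 4 lower) became 7 lower at 1.5-fold. In pulse (5 higher, 2 lower) there were 9 higher and 8 lower at 1.5-fold, 4 lower with ribosomal and mitochondrial transcripts out of the denominator, 1 lower at a floor of 20 CPM and 1 lower with the Prg4 threshold dropped from the surface gate, an alternative chosen after seeing the data. Trace over pulse in surface cells (0 higher, 3 lower) became 3 higher and 9 lower at 1.5-fold, 1 higher and 1 lower under that denominator, 1 higher and 1 lower with the median of all genes set to 0, and 1 higher with marker thresholds doubled. In deeper-zone cells (0 higher, 9 lower) there were 2 higher at 1.5-fold, 2 with Leiden clusters in place of the gate, 2 higher and 4 lower with the median set to 0, and 1 higher each under that denominator, with per-cell means and without high doublet scores. The remaining 68 counts stayed within 1.5 times. The 127 deeper-zone cells of trace set the precision of most ratios.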
